A study of Mus musculus with 6 samples.

Results

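The oligoadenylate synthetase (OAS) family was described in bone marrow-derived macrophages (BMDMs), which are cultured from marrow with a growth factor and had here been co-cultured with neutrophils from the injured spinal cord. The members were chosen by gene symbol, as *Oas1a*, *Oas1b*, *Oas1c*, *Oas1g*, *Oas2*, *Oas3*, *Oasl1* and *Oasl2*, which are 8 of the 55335 genes in the table. In 3 libraries, labelled WT here, the BMDMs were co-cultured for 24 h with neutrophils of *Cd177* WT mice, and in 3 libraries, labelled KO, with neutrophils of *Cd177* KO mice (*Cd177*-/-), taken in both cases by magnetic sorting from the lesion at 3 days post-injury (dpi). The BMDMs of all 6 libraries came from *Cd177* WT mice and had been grown for 7 days with 25 ng/ml M-CSF, so that the deletion lay in the neutrophils alone, and Ly6G-negative cells were sorted before RNA extraction. The mice of the study were male, and the purchased C57BL/6 mice were 8 weeks old. The cells in which the knockout acts and the deleted part of the gene are not given in the sources used here. The comparison addressed how macrophages respond to neutrophils that lack CD177. The labels do not say whether the 3 libraries of a group came from separate cultures or animals, so the p-values measure the spread between these libraries, which may be technical. Values are FPKM (fragments scaled to transcript length and to the library's total), which allow levels to be compared between genes of different length.

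OAS enzymes are sensors of double-stranded RNA. Once bound to it, OAS1, OAS2 and OAS3 proteins join ATP into 2′-5′-linked oligoadenylates (2-5A), which act as a second messenger of antiviral defence. OAS genes are induced by interferon, and macrophages are among the cells that induce them readily. The mouse carries a group of *Oas1* copies in place of a single gene, of which only some encode active enzymes, and OAS-like proteins have roles apart from 2-5A.

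The implied depth of the libraries was between 17600000 and 20200000 fragments, if the smallest common step in low values stands for 1 fragment. All 8 macrophage markers were detected, with a summed level between 6628 and 7990 FPKM with the WT label and between 7230 and 7917 FPKM with the KO label. Most of this sum was *Lyz2* (4573, 4462 and 5731 FPKM with the WT label, 5963, 5881 and 6588 FPKM with the KO label). The sum thus says little about the other markers. *Cd14* (means 1010 and 99.4 FPKM) and *Fcgr1* (121.2 and 33.8 FPKM) were lower and 2 others higher with the KO label. The gene *Cd177* ran against the labels, with 0.544, 0.309 and 0.521 FPKM under the WT label and 1.79, 1.84 and 2.28 FPKM under the KO label, so that each direction below is one between labels. An exchange of labels was not tested. Of 12 neutrophil markers, 11 were tested, 10 were higher and 1 was lower in the libraries labelled KO, and their summed level was between 188.8 and 250.1 FPKM with the WT label and between 541.4 and 555.6 FPKM with the KO label. The defining marker *Ly6g*, the gene behind the sort, was listed at 0 in the 3 libraries labelled WT and between 0.403 and 0.660 FPKM in those labelled KO. The part of this difference in the OAS values was not tested. None of 4 plasmacytoid dendritic cell markers and none of 8 lymphocyte markers reached the mean of 0.5 FPKM needed for a test, with single values up to 0.808 and 0.152 FPKM. In these bulk libraries, fewer cells that express a gene and less of its RNA per cell cannot be told apart.

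The start regions of the members are shown first, because the interferon-stimulated response element (ISRE) is the sequence through which OAS genes are known to be induced. The members searched also differ in whether a match to its core letters was found. RefSeq windows from 250 bases before to 50 bases after the start were held for 6 of the 8 members (GRCm38.p6), and the windows of *Oas1b* and *Oas2* were not used here. The 150 bases before each start are given 5′ to 3′ on the strand of the gene, with matches to the ISRE core (GAAA, any 2 bases, then GAAA, searched on both strands) in capitals.
Oas1a: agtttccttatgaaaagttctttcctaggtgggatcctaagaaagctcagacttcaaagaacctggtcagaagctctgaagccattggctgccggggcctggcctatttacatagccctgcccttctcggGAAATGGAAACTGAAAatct
Oas1g: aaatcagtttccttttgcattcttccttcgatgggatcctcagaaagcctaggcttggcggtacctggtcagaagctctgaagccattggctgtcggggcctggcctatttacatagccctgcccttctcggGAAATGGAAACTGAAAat
Oas1c: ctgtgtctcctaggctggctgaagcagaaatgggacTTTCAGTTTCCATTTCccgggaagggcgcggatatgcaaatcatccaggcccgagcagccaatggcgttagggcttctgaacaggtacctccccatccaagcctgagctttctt
Oas3: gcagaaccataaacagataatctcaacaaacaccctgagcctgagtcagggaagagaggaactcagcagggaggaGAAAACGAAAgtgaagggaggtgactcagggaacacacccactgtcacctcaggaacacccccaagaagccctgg
Oasl1: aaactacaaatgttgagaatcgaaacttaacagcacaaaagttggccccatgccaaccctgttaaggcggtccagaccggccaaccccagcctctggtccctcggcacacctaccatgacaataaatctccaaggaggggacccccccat
Oasl2: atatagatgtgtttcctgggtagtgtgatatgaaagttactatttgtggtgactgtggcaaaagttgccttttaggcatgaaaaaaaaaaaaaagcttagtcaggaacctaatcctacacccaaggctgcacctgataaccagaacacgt
These sequences lie on chromosome 5, at chr5:120907526-120907675 (minus strand, *Oas1a*), chr5:120887614-120887763 (minus strand, *Oas1g*), chr5:120812515-120812664 (minus strand, *Oas1c*), chr5:120777660-120777809 (minus strand, *Oas3*), chr5:114923090-114923239 (plus strand, *Oasl1*) and chr5:114896784-114896933 (plus strand, *Oasl2*).

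The ISRE core was found in the whole window of 4 of the 6 members, against 3.44% of the 32851 RefSeq windows of this length (1131 windows, 27025 genes). *Oas1a* and *Oas1g* carried the same run of 16 bases, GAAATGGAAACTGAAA, made of 2 overlapping matches, which ended 5 bases before the start of *Oas1a* and 3 bases before the start of *Oas1g*. The same run stood in the *Oas1c* window on the opposite strand, which is why it appears there as its reverse complement. In *Oas1c* it lay 99 bases before the gene's own start, and 6 bases separated it from the annotated start of *Oas1b*, the neighbour that is read in the other direction. *Oas3* had a single match, GAAAACGAAA, that ended 66 bases before the start. No match was present in the *Oasl1* and *Oasl2* windows, which says only that these letters are not in them. The core of the second interferon element, GAS (TTCNNNGAA, both strands), was found in 1 of the 6 windows, that of *Oas1a*, and in 8.30% of all windows. The windows of *Oas1a* and *Oas1g* were identical at 261 of 294 aligned positions (88.8%). The matches in the *Oas1* copies are thus not independent, which limits the count of 4 of the 6 members.

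All 8 members passed the filter of a mean of 0.5 FPKM over the 6 libraries. By limma on log2(FPKM + 0.5), with p-values adjusted (Benjamini-Hochberg) over the 13367 genes tested, 7 of the 8 were lower with the KO label at the 0.05 level and none was higher (0 also at an unadjusted p under 0.05). Of these 13367 genes, 10.5% were lower and 27.1% were higher by this rule, that is 1408 and 3619 genes, a split that became 2259 lower and 2057 higher with median-of-ratios scaling. The 2 groups of libraries did not overlap for 7 of the 8 members, all lower with the KO label, which held for 14.4% of all tested genes. The exception in both counts was *Oas1c*. The median log2 difference of the members was -2.47, where the median of all tested genes was 0.19. Without replicate 3 of both groups, a choice made after the data were seen, 7 members were still lower and the median was -2.49.

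**Figure D1:**
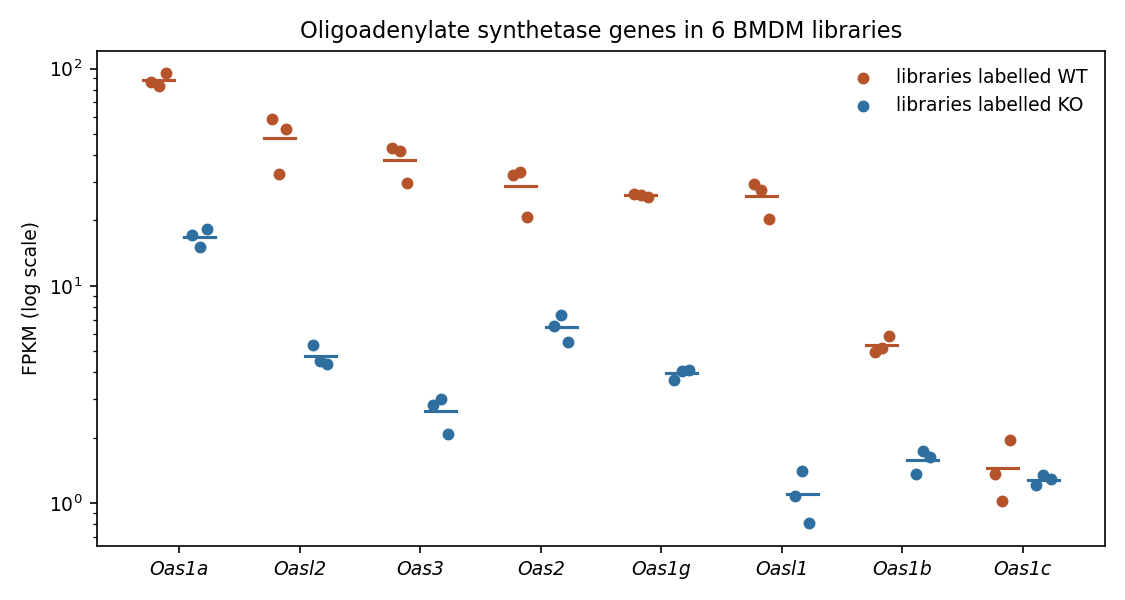
FPKM of the 8 OAS genes on a log axis, ordered by their mean in the libraries labelled WT. Each point is 1 library (3 labelled WT, 3 labelled KO), and each line is the mean of a group. The 2 groups are apart for 7 genes and overlap for *Oas1c*, and *Oas1a* is the highest gene in both groups.

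*Oas1a* encodes an active synthetase and was the most abundant member. It lies at chr5:120896256-120907521 on the minus strand (ENSMUSG00000052776, GRCm38). It had 86.8, 83.5 and 95.2 FPKM with the WT label and 17.1, 15.1 and 18.4 FPKM with the KO label. The lowest value with the WT label was well above the highest with the KO label, and the groups did not overlap. The means were 88.5 ± 6.02 and 16.9 ± 1.66 FPKM (SD, n = 3 each), and the log2 difference was -2.36 (SE 0.10, limma adjusted p = 1.13e-05).

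*Oas1g* (ENSMUSG00000066861, chr5:120876142-120887613, minus strand) is the closest copy of *Oas1a* among the members. Its values were 26.5, 26.3 and 25.5 FPKM with the WT label and 3.69, 4.06 and 4.12 FPKM with the KO label. The libraries of a group lay close together and the groups were far apart. The log2 difference was -2.58 (SE 0.08, limma adjusted p = 3.55e-06), from 26.1 ± 0.512 to 3.96 ± 0.232 FPKM (SD, n = 3 each). The transcripts of both genes were identical at 97.5% of 1860 aligned positions. Of all stretches of 50 bases in the *Oas1a* transcript, 57.6% also occurred in that of *Oas1g*, so the split of reads between them depends on the authors' counting and their separate values are uncertain. Their summed level depends less on that split, provided that each shared read was kept and counted once. It was 113.3, 109.7 and 120.7 FPKM with the WT label and 20.8, 19.1 and 22.5 FPKM with the KO label, a 5.50-fold difference of means (exact permutation test, two-sided, p = 0.1, the smallest that 3 against 3 libraries can give).

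*Oas2* (ENSMUSG00000032690, chr5:120730333-120749853, minus strand) encodes a synthetase with a pair of OAS units. It had 32.4, 33.6 and 20.8 FPKM with the WT label and 6.53, 7.34 and 5.50 FPKM with the KO label. Replicate 3 was the lowest library of its group in both cases, and the groups did not overlap. The means were 28.9 ± 7.09 and 6.46 ± 0.919 FPKM (SD, n = 3 each), and the log2 difference was -2.06 (SE 0.20, limma adjusted p = 0.00041). *Gm43068*, named after its values were seen, overlaps *Oas2* by 1273 bases on the opposite strand and had means of 0.671 FPKM with the WT label and 0.162 FPKM with the KO label. The use of strand in the counting is not stated, so reads from the overlap cannot be told apart.

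*Oas3* (ENSMUSG00000032661, chr5:120753098-120777661, minus strand) encodes the largest synthetase, which binds long double-stranded RNA. Its values were 42.9, 41.8 and 29.6 FPKM with the WT label and 2.84, 3.03 and 2.08 FPKM with the KO label. Replicate 3 was again the lowest in each group. The mean fell 14.4-fold, from 38.1 ± 7.39 to 2.65 ± 0.504 FPKM (SD, n = 3 each), and the log2 difference was -3.61 (SE 0.18, limma adjusted p = 2.34e-05).

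Replicate 3 of each group also differed from replicates 1 and 2 by transcript length over all genes. In replicate 3 with the WT label, genes with transcripts of 4000 bases or more had a median log2 difference of -0.26 from the mean of replicates 1 and 2, those between 2000 and 4000 bases had 0.007 and those under 2000 bases had 0.23. With the KO label the same medians were -0.12, 0.04 and 0.08. *Oas2*, *Oas3* and *Oasl1* differed by -0.66, -0.51 and -0.48 in replicate 3 with the WT label. Of these, *Oas2* (3961 bases) and *Oasl1* (2181 bases) belong to the middle class, whose median was near 0. *Oasl2* (3123 bases), also of this class, differed by 0.26 in the other direction. Its WT replicate 2 was low, at 32.76 FPKM against 58.75 and 52.62 FPKM in WT replicates 1 and 3. In replicate 3 with the KO label, *Oas2*, *Oas3*, *Oasl1* and *Oasl2* differed by -0.31, -0.41, -0.41 and -0.16. The part of transcript length in these values was not tested.

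*Oas1b* (ENSMUSG00000029605, chr5:120812635-120824163, plus strand) is known as the flavivirus resistance gene, whose product is truncated in common laboratory strains. It had 4.95, 5.17 and 5.90 FPKM with the WT label and 1.37, 1.73 and 1.62 FPKM with the KO label, and the groups did not overlap. The means were 5.34 ± 0.501 and 1.57 ± 0.187 FPKM (SD, n = 3 each), and the log2 difference was -1.49 (SE 0.12, limma adjusted p = 0.000175). This was the smallest log2 difference among the 7 members called in this fit.

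*Oas1c* (ENSMUSG00000001166, chr5:120800194-120812514, minus strand) encodes a member without synthetase activity. Its values were 1.37, 1.03 and 1.95 FPKM with the WT label and 1.21, 1.35 and 1.29 FPKM with the KO label. All 3 libraries labelled KO lay inside the range of those labelled WT. The log2 difference was -0.10 (95% interval -0.54 to 0.34, limma adjusted p = 0.709), and it was 0.08 without WT replicate 3, so its direction was not determined. The lower end of this interval lay above the log2 difference of every other member, although the values rest on between 42 and 81 implied fragments. Of its 50-base stretches, 10.7% occurred in transcripts of other genes, mostly *Oas1e*, which was listed at 0 in every library. The difference between *Oas1b* and *Oas1c*, whose starts face away from each other 121 bases apart, fell from 1.61 ± 0.26 to 0.21 ± 0.08 on the log2(FPKM + 0.5) scale (SD, n = 3 each, exact permutation p = 0.1, groups not overlapping).

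*Oasl1* (ENSMUSG00000041827, chr5:114923240-114937915, plus strand) encodes an OAS-like protein without synthetase activity that is known to restrain the translation of *Irf7*. It had 29.6, 27.6 and 20.3 FPKM with the WT label and 1.08, 1.41 and 0.809 FPKM with the KO label. The groups were furthest apart in this member. The mean fell 23.5-fold, from 25.8 ± 4.90 to 1.10 ± 0.299 FPKM (SD, n = 3 each), and the log2 difference was -4.04 (SE 0.19, limma adjusted p = 1.70e-05). The start of *Oasl1* overlaps the antisense gene *Gm13822* by 38 bases, where the same limit holds. *Gm13822*, named after its values were seen, had a mean of 3.06 FPKM with the WT label and was listed at 0 in the 3 libraries labelled KO.

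*Oasl2* (ENSMUSG00000029561, chr5:114896936-114912234, plus strand) encodes the OAS-like protein that retains synthetase activity in the mouse. Its values were 58.7, 32.8 and 52.6 FPKM with the WT label and 5.37, 4.51 and 4.36 FPKM with the KO label. Among the libraries labelled WT replicate 2 was low, unlike for *Oas2*, *Oas3* and *Oasl1*, and the groups did not overlap. The means were 48.0 ± 13.6 and 4.75 ± 0.543 FPKM (SD, n = 3 each), and the log2 difference was -3.17 (SE 0.22, limma adjusted p = 9.00e-05).

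The remaining *Oas1* copies were near or at 0. *Oas1e* was listed at 0 in all 6 libraries, *Oas1d* and *Oas1f* each in 5 of 6, and the highest value of *Oas1h* was 0.271 FPKM in WT replicate 1. None was tested.

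In the libraries labelled WT, *Oas1a* was the highest member and did not overlap with the next, *Oasl2*. *Oasl2*, *Oas3*, *Oas2*, *Oas1g* and *Oasl1* followed in this order of their means, and each overlapped with its neighbour. *Oas1b* and then *Oas1c* came last, each below its neighbour without overlap. In the libraries labelled KO, the order was *Oas1a*, *Oas2*, *Oasl2*, *Oas1g*, *Oas3*, *Oas1b*, *Oas1c* and *Oasl1*, and only the last pair overlapped. *Oasl1* thus stood 6th with the WT label and 8th with the KO label, where its mean was below that of *Oas1c*. The places of *Oas1a* and *Oas1g* depend on the split of their shared reads, which is uncertain.

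The summed level of the 8 members was 283.2, 251.6 and 251.8 FPKM with the WT label and 39.2, 38.5 and 38.1 FPKM with the KO label. The sum was 6.79-fold higher with the WT label (262.2 ± 18.2 against 38.6 ± 0.556 FPKM, SD, n = 3 each, exact permutation p = 0.1, the smallest possible). The make-up of the sum also differed. *Oas1a* held 33.9% ± 3.63 of it with the WT label and 43.7% ± 4.49 with the KO label (SD, n = 3 each, groups not overlapping). The share of *Oas3* was 14.5% ± 2.49 against 6.85% ± 1.26, and that of *Oasl1* 9.82% ± 1.55 against 2.84% ± 0.770 (SD, n = 3 each). The share of *Oas2* was in contrast higher with the KO label, at 16.7% ± 2.31 against 11.0% ± 2.58 (SD, n = 3 each). These shares had an exact permutation p of 0.1. *Oas1g* kept close to its share, at 9.97% ± 0.556 and 10.3% ± 0.742 with overlapping groups (SD, n = 3 each, exact permutation p = 0.5). The shares of *Oas1a* and *Oas1g* rest on the uncertain split of reads between these copies. As shares are parts of a total, a higher share can go with a lower level, as in *Oas1a* and *Oas2*.

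**Figure D2:**
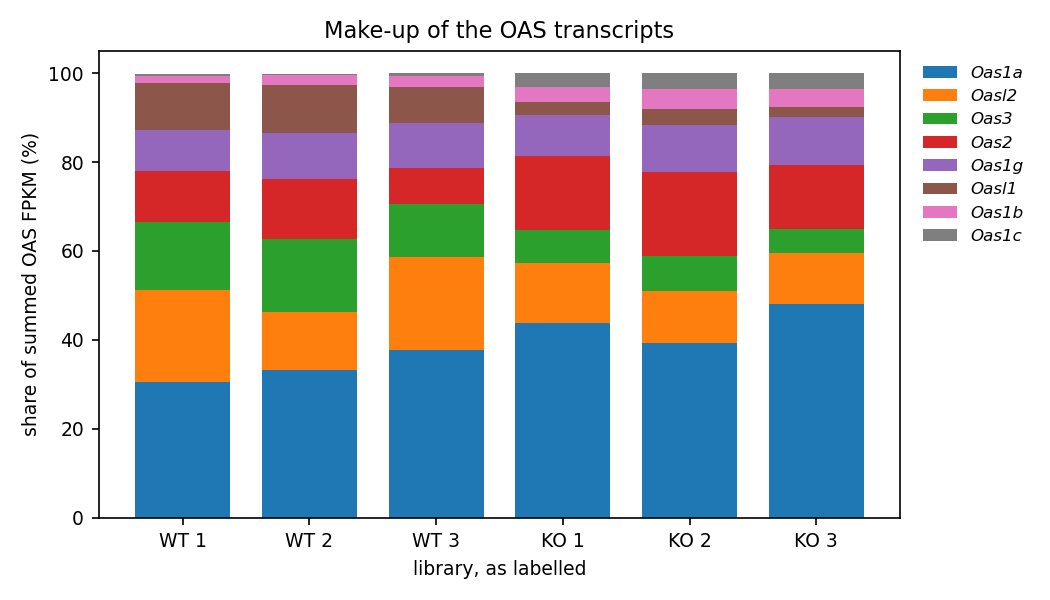
Share of each OAS gene in the summed FPKM of the 8 genes (%), 1 stacked bar for each library. From the bars labelled WT to those labelled KO, the *Oas1a* share goes from 30.6-37.8% to 39.2-48.1% and the *Oasl1* share from 8.05-10.9% to 2.12-3.65%.

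The differences between members were compared directly, as the difference of log2(FPKM + 0.5) within each library. Of 30 such differences, 28 between pairs of members and 2 between gene families, 25 did not overlap between the groups. Each of these had an exact permutation p of 0.1, which is the smallest possible and was 0.12 after Benjamini-Hochberg adjustment over the 30, so none could pass 0.05. With a pseudocount of 1, 23 did not overlap. The pairs share the same members and are not independent, and every pair with *Oas1c*, the member that was not called, was without overlap. The share without overlap among pairs of all tested genes was not computed. *Oas2* and *Oas3*, which are neighbours in the genome, moved from -0.40 ± 0.09 (*Oas2* minus *Oas3*) with the WT label to 1.15 ± 0.07 with the KO label (SD, n = 3 each), that is, the order of the 2 genes turned. *Oas3* and *Oasl1* were closer, and their difference went from 0.55 ± 0.04 to 0.98 ± 0.10 (SD, n = 3 each). The size of this change depended on the pseudocount. The log2 differences between the labels of *Oas3* and *Oasl1* were -3.8 and -4.45 with 0.1, and -3.41 and -3.67 with 1. *Oas1a* minus *Oas1g* was 1.74 ± 0.12 and 1.96 ± 0.16 (SD, n = 3 each) and overlapped between the groups (exact permutation p = 0.2). This difference rests on the uncertain split of reads between these copies. The other overlapping pairs were *Oas1a* and *Oas2*, *Oas1b* and *Oas2*, *Oas1g* and *Oasl2*, and *Oas3* and *Oasl2*.

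Most members lie in 1 cluster. The *Oas1*, *Oas2* and *Oas3* genes span 191.3 kb at chr5:120730333-120921652, with 10 OAS genes and 3 other annotated genes, none of which was tested. The nearest tested protein-coding genes on either side were *Ddx54*, 101.7 kb away, and *Ptpn11*, 208.9 kb away. *Ddx54* had 19.5 ± 1.60 FPKM with the WT label and 17.0 ± 1.05 FPKM with the KO label (SD, n = 3 each), a log2 difference of -0.20 (limma adjusted p = 0.149) that was -0.42 with median-of-ratios scaling (adjusted p = 0.0147). *Ptpn11* had 19.5 ± 3.51 and 21.1 ± 2.04 FPKM (SD, n = 3 each), and the log2 difference of 0.13 became -0.10 with median-of-ratios scaling (limma adjusted p = 0.553 and 0.626). *Oasl1* and *Oasl2* form a second group of 41.0 kb on the same chromosome.

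**Figure D3:**
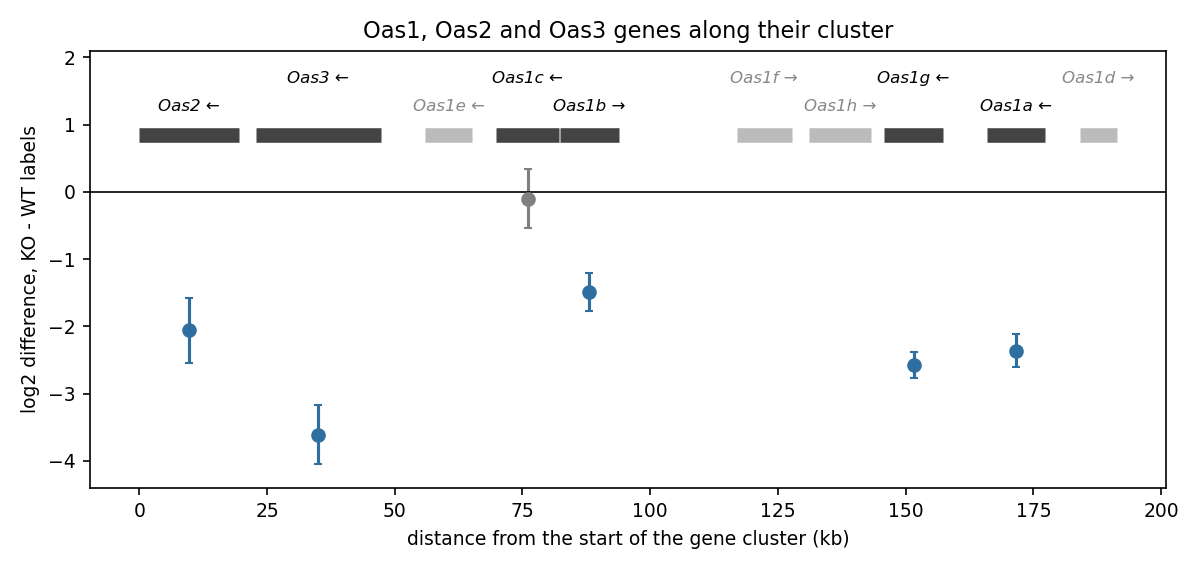
The *Oas1*, *Oas2* and *Oas3* genes along their cluster, with the distance from its start in kb on the x axis. Boxes are genes (dark, tested; pale, not tested) with arrows for their strand, and points are the log2 difference of FPKM + 0.5 between the labels KO and WT with its 95% interval from limma. *Oas1c* (grey point, at -0.10) is near 0 between *Oas3* at -3.61 and *Oas1b* at -1.49.

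Of the 2-5A pathway, 3 genes were read beside the members. None was called by limma at the adjusted level, and 2 had an unadjusted p-value under 0.05, both with higher values under the KO label. *Abce1*, an ATPase that splits ribosomes for reuse, had 20.7 ± 0.764 and 20.5 ± 0.0930 FPKM (SD, n = 3 each), and the log2 difference was -0.01 (95% interval -0.19 to 0.17, limma adjusted p = 0.932). With median-of-ratios scaling it was -0.23 (limma adjusted p = 0.0511), outside this interval. *Pde12*, a phosphodiesterase that degrades 2-5A, had 3.44 ± 0.462 and 4.33 ± 0.234 FPKM (SD, n = 3 each, log2 difference 0.30, limma adjusted p = 0.0886). *Akap7*, whose product has a domain that degrades 2-5A, had 0.957 ± 0.389 and 1.70 ± 0.178 FPKM (SD, n = 3 each). Its log2 difference of 0.62 (limma adjusted p = 0.0541) became 0.82 without WT replicate 2 (adjusted p = 0.0188) but 0.43 without WT replicate 1 (adjusted p = 0.124). With median-of-ratios scaling the log2 differences of *Pde12* and *Akap7* were 0.099 and 0.46 (limma adjusted p = 0.54 and 0.143).

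**Figure D4:**
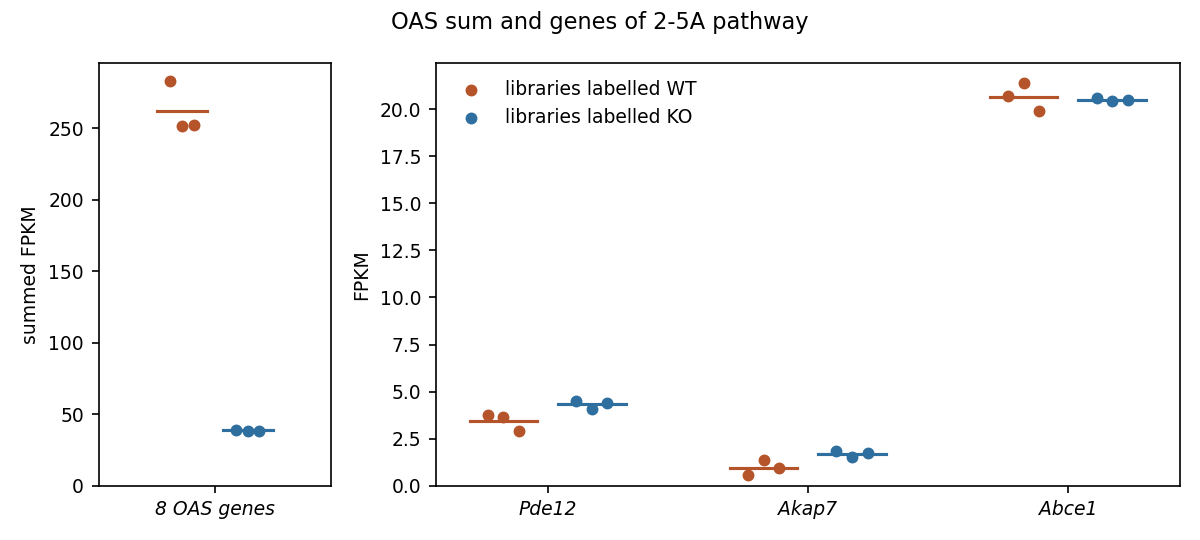
Left, summed FPKM of the 8 OAS genes, and right, FPKM of 3 genes of the 2-5A pathway. Points are libraries and lines are group means, on axes that start at 0. The OAS sum is between 38.1 and 39.2 with the KO label, below 251.6 to 283.2 with the WT label, while the groups of *Abce1* overlap near 20.5.

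Of 21 genes described around the members (2-5A pathway, interferon signalling and nucleic acid sensors), 20 were tested. With the KO label 10 of them were lower and 2 were higher (limma, adjusted p under 0.05), and their median log2 difference was -0.54. The 10.5% and 27.1% of all tested genes called lower and higher are the background of these counts.

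In interferon signalling, 4 of 8 tested genes were lower, 1 was higher and 3 were not called. *Stat2*, a subunit of the complex that binds the ISRE, fell from 32.9 ± 10.9 to 4.58 ± 0.620 FPKM (SD, n = 3 each, log2 difference -2.67, limma adjusted p = 0.000394). *Irf9*, another subunit of that complex, differed far less, at 8.57 ± 0.456 and 6.72 ± 0.387 FPKM (SD, n = 3 each). Its log2 difference of -0.33 passed the test (limma adjusted p = 0.0273), but the call was lost with values rescaled to TPM (adjusted p = 0.0745) and without any 1 of 5 libraries, WT replicates 1 and 2 and KO replicates 1, 2 and 3 (adjusted p from 0.0625 to 0.0916). *Irf7*, the interferon regulatory factor that amplifies the response, fell from 41.3 ± 0.70 to 2.49 ± 0.280 FPKM (SD, n = 3 each, log2 difference -3.81, limma adjusted p = 1.86e-06). *Irf1*, another factor of this family, fell from 47.6 ± 4.13 to 11.6 ± 0.434 FPKM (SD, n = 3 each, log2 difference -1.99, limma adjusted p = 1.44e-05).

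The receptor chains of type I interferon were not called. *Ifnar1* had a log2 difference of -0.11 (95% interval -0.48 to 0.26, limma adjusted p = 0.621), which was -0.17 without replicate 3 of both groups (adjusted p = 0.0376). *Ifnar2* had one of 0.09 (95% interval -0.09 to 0.27, limma adjusted p = 0.384), which was -0.14 with median-of-ratios scaling (adjusted p = 0.262). Of the receptor's kinases, *Jak1* was higher with the KO label, with 32.1 ± 2.79 against 43.9 ± 1.44 FPKM (SD, n = 3 each, log2 difference 0.45, limma adjusted p = 0.00869), a call that median-of-ratios scaling ended (0.22, adjusted p = 0.0841). *Tyk2* was not called (0.29, limma adjusted p = 0.359). *Ifnb1*, the gene of interferon beta, was listed at 0 in 5 libraries and at 0.0740 FPKM in WT replicate 3 and was not tested.

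Of the other nucleic acid sensors, 6 of 9 were lower, 1 was higher and 2 were not called. *Zbp1*, a sensor of Z-form nucleic acids, had 37.8, 36.3 and 38.7 FPKM with the WT label and 1.5, 1.77 and 1.38 FPKM with the KO label. That difference was 24.2-fold without overlap (log2 difference -4.22, limma adjusted p = 1.68e-06). The RIG-I-like receptors *Ddx58*, *Ifih1* and *Dhx58* had log2 differences of -1.81, -1.87 and -2.30 (limma adjusted p = 2.86e-05, 2.96e-05 and 6.28e-06). *Eif2ak2*, the kinase PKR that double-stranded RNA activates, fell from 23.4 ± 3.2 to 7.53 ± 1.68 FPKM (SD, n = 3 each, log2 difference -1.58, limma adjusted p = 0.00083). *Adar*, which edits double-stranded RNA, fell from 18.9 ± 4.20 to 6.26 ± 0.746 FPKM (SD, n = 3 each, log2 difference -1.51, limma adjusted p = 0.000987).

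*Mavs*, the adaptor of the RIG-I-like receptors, was higher with the KO label, at 9.86 ± 0.326 against 13.2 ± 0.676 FPKM (SD, n = 3 each, log2 difference 0.40, limma adjusted p = 0.00922), and was not called with median-of-ratios scaling (0.18, adjusted p = 0.124). *Tlr3*, the endosomal receptor of double-stranded RNA, had a log2 difference of -0.75 (limma adjusted p = 0.106), which was -1.07 without WT replicate 3 (adjusted p = 0.014). *Cgas*, the DNA sensor, had one of -0.20 (limma adjusted p = 0.592), which was 0.11 without WT replicate 1 (adjusted p = 0.634).

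**Figure D5:**
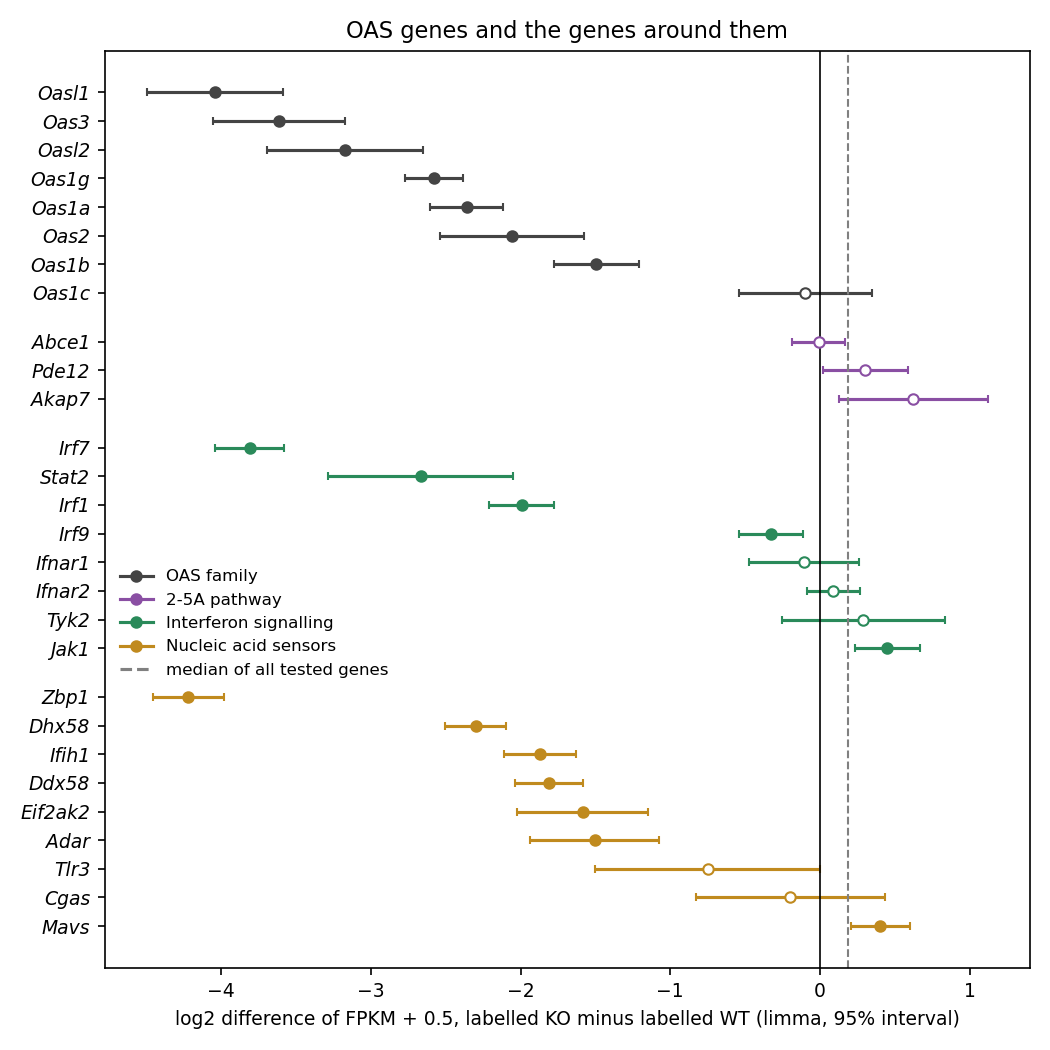
Log2 difference of FPKM + 0.5 (KO label minus WT label) with its 95% interval from limma, for the 8 OAS genes and the 20 tested genes around them. Filled points have an adjusted p-value under 0.05 and open points do not. The OAS genes run from -4.04 (*Oasl1*) to -0.10 (*Oas1c*), and *Zbp1*, at -4.22, lies furthest to the left.

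The members were set beside a pair of other interferon-induced families. All 5 tested IFIT genes, whose products bind foreign RNA, were lower with the KO label, with a median log2 difference of -5.22. The mean log2 level of the 8 OAS genes was 0.79 ± 0.14 below that of the IFIT genes with the WT label and 1.35 ± 0.20 above it with the KO label (SD, n = 3 each), a change of 2.14 without overlap (exact permutation p = 0.1, 0.12 adjusted over the 30 differences). The size of this change depended on the pseudocount, being 2.595 with 0.1 and 1.865 with 1. The ISRE core was present in the windows of 5 of 6 IFIT genes, against 4 of 6 members. These counts are not alike, because *Ifit1bl1*, *Ifit1bl2* and *Ifit2* had more than 1 window each and the members had 1. The windows of *Ifit1* and *Ifit1bl2* also overlap, and *Ifit1bl2* was not tested for expression. Of 8 guanylate-binding protein (GBP) genes, which encode interferon-induced GTPases, 7 were lower, with a median of -2.68. The OAS mean exceeded the GBP mean by 1.08 ± 0.14 with the WT label and 1.37 ± 0.13 with the KO label (SD, n = 3 each), a change of 0.28 without overlap (exact permutation p = 0.1, 0.12 adjusted) that depended on the pseudocount, being 0.71 with 0.1 and 0.09 with 1.

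The genes whose pattern was most like that of the members were found by the Pearson correlation, over the 6 libraries, with the members' mean log2 level. As the libraries form 2 groups that stand far apart, any gene with a large and even difference scores high, and 284 genes had a correlation above 0.99. The 5 highest among genes that are no members and carry no clone name were *Tgfbi* (0.9995), *M6pr* (0.9994), *Cd86* (0.9994), *Odaph* (0.9992) and *Zbp1* (0.9992). *Tgfbi*, which encodes an extracellular matrix protein, had 140.3, 135.3 and 131.1 FPKM with the WT label and 39.1, 38.5 and 36.4 FPKM with the KO label. *Cd86*, a costimulatory ligand of T cells, had 19.99, 18.7 and 19.5 FPKM against 5.20, 5.42 and 5.24 FPKM. *M6pr*, a receptor that sorts lysosomal enzymes, differed by only -0.87 on the log2 scale, from 87.5 ± 3.37 to 47.6 ± 0.785 FPKM (SD, n = 3 each, limma adjusted p = 0.000205), and *Odaph*, known from enamel formation, by -2.07, from 2.02 ± 0.222 to 0.10 ± 0.0353 FPKM (SD, n = 3 each, limma adjusted p = 7.52e-05).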

How the data were processed

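RNA-seq values of 6 libraries were analysed, and microglia were not analysed here. The values deposited by the authors are FPKM of 55335 mouse Ensembl identifiers. The submitters' processing notes name fastp 0.17.1, HISAT2 2.1.0, DESeq2 1.18.1 and R 3.4.3. The genome build, annotation, use of strand and treatment of reads shared by gene copies are not given in the sources used here. The labels and the paper's methods differ in extraction reagent, library kit and sequencer. FPKM are scaled to each library's total, so a change in abundant genes shifts all others. Whole reads could not be recovered (37.1% to 40.3% of the low values were whole multiples of the smallest step to within 0.1, and 20% would be by chance), so no count test was run.

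Genes whose mean reached 0.5 FPKM were tested as log2(FPKM + 0.5), on which changes of low genes come out too small, with limma 3.58.1 in R 4.3.3 (eBayes with trend, two-sided, no covariates) and Benjamini-Hochberg adjustment over all 13367. The test was tested on simulated data. Single values per library were compared with the two-sided exact permutation test. Symbols and positions came from GENCODE M21 (GRCm38, 99.7% of identifiers matched) and start regions from RefSeq (GRCm38.p6). The members and gene lists were chosen with earlier results of these data known, and certain genes of the lists are not reported here. Genes named are the members, genes of the lists and the 5 most like the members' mean. Also named are *Ddx54* and *Ptpn11* beside the cluster of *Oas1*, *Oas2* and *Oas3* genes, and *Gm43068* and *Gm13822*, which overlap members. The genes beside the group of *Oasl1* and *Oasl2* are not given. Alternatives were pseudocounts of 0.1 and 1, no filter or one of 5 FPKM, 4 scalings, a robust fit, the replicate number as a block, the threshold of the study (fold change above 2, unadjusted p) and each library left out. Python 3.11.15 with pandas 2.3.3, scipy 1.17.1 and matplotlib 3.10.9 was used for the other steps.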

Additional observations from a re-analysis of the deposited data

How the results depend on the processing

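The 7 members called lower kept that call in all 118 alternative values computed for them, with adjusted p-values from limma up to 0.00305. Their count was 7 under every alternative that tested all 8 members and 6 of the 6 tested with the filter at 5 FPKM. The members' median log2 difference of -2.47 was -2.88 with the filter at 5 FPKM, which tested 6 members, -2.69 with median-of-ratios scaling and -2.67 with upper-quartile scaling, and from -2.51 to -2.44 with 1 library left out. The genes around the members that were higher with the KO label numbered 2, but 0 by limma under upper-quartile scaling, under median-of-ratios scaling and at the threshold of the study (2 and 1 at an unadjusted p under 0.05 under those scalings, in that order). The ratio of summed OAS levels was between 6.52 and 7.96 in all alternatives, and with 1 library left out the smallest permutation p is 0.2. Values that changed sign, none of which was called in either setting, were those of *Oas1c* (from -0.26 to 0.08 with 1 library left out and 0.078 without replicate 3 of both groups), *Abce1* (0.007 with TPM, from -0.036 to 0.016 with 1 library left out), *Ifnar2* (-0.14 with median-of-ratios and -0.12 with upper-quartile scaling), *Cgas* (from -0.41 to 0.11 with 1 library left out) and *Ptpn11* (-0.084 with upper-quartile and -0.098 with median-of-ratios scaling, from -0.03 to 0.21 with 1 library left out). The cause was not tested. Over all tested genes, median-of-ratios scaling moved the calls from 1408 lower and 3619 higher to 2259 lower and 2057 higher, and the median from 0.19 to -0.01. The replicate numbers were not used as pairs, because the deviations of same-numbered libraries correlated at 0.116, 0.036 and 0.264, not all above 0.1, and WT replicate 2 correlated best with KO replicate 1. Pairing is thus not shown, while the replicate 3 libraries had the highest of the 9 correlations. With the replicate block, 1681 genes were lower and 4253 higher, and 7 members were lower as before. The implied depth limits *Oas1c* and the KO values of *Oas1b* and *Oasl1*, which rest on as few as 42, 44 and 32 implied fragments. These numbers are approximate, because whole reads could not be recovered.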
